A study of Homo sapiens with 6 samples.

Results

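The 31 genes described here act in mitosis. They were chosen by name, each as 1 Ensembl transcript whose ID had to be present as a row of the deposited table, and all 31 of 31 were found among its 65527 transcript rows. The choice was made with earlier results of these data known, so no test was made over the list as a whole. Gene names come from that list, since the table itself gives transcript IDs only. The samples were HepG2 cells, a human liver tumour line, exposed to 24 mM boric acid for 24 hours (3 arrays) or left untreated as controls (3 arrays). Both groups grew in low-glucose DMEM with serum. For the controls the labels name no vehicle and give no time. The dose is the one the labels give as the inhibitory concentration IC50 of boric acid in this line. Total RNA was hybridised to Affymetrix whole-transcript arrays, and each row holds an RMA signal on the log2 scale. Whether a group's samples came from separate cultures is not in the labels, so the spread behind every p-value is that between these arrays and may in part be technical. Markers of liver cells were not checked, because no table used here pairs the row IDs with other gene names.

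Mitosis runs on a kinase switched on by cyclin binding and switched off when the cyclin is destroyed. CDK1 with cyclin B drives entry, the spindle checkpoint holds back the anaphase-promoting complex until every chromosome is attached to microtubules, and the complex then marks cyclin B and securin for destruction, so that sister chromatids part and the cell divides. Many genes of this programme are transcribed mainly in G2 and mitosis, and their summed level in a culture therefore also follows the share of cells that are dividing. In these bulk samples, fewer cells in G2 or mitosis and less RNA per such cell cannot be told apart.

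Most of the mitosis genes were lower in boric acid, and a single one was higher. In limma's test, adjusted by the Benjamini-Hochberg method over all 33710 rows that passed a signal filter, 25 of the 31 genes (80.6%) fell at an adjusted p under 0.05, while 19.2% of all tested rows did. 1 of the 31 (3.23%) rose, CDC20, the activator of the anaphase-promoting complex, against 23.0% of all tested rows. The other 5 did not pass the threshold: CCNB1, AURKA, CENPA, PTTG1 and ECT2. All 31 genes passed the filter, NDC80 only through its 3 control arrays. Because the genes were chosen with earlier results known, the shares of all tested rows are given as a description. The contrast with them was not tested. The median log2 fold change (boric acid minus control) was -0.70 over the 31 genes, a 1.62-fold lower signal, and 0.02 over all tested rows. The middle of the distribution lay between -0.95 and -0.42 for the mitosis genes (quartiles) and between -0.28 and 0.33 for all tested rows.

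**Figure D1:**
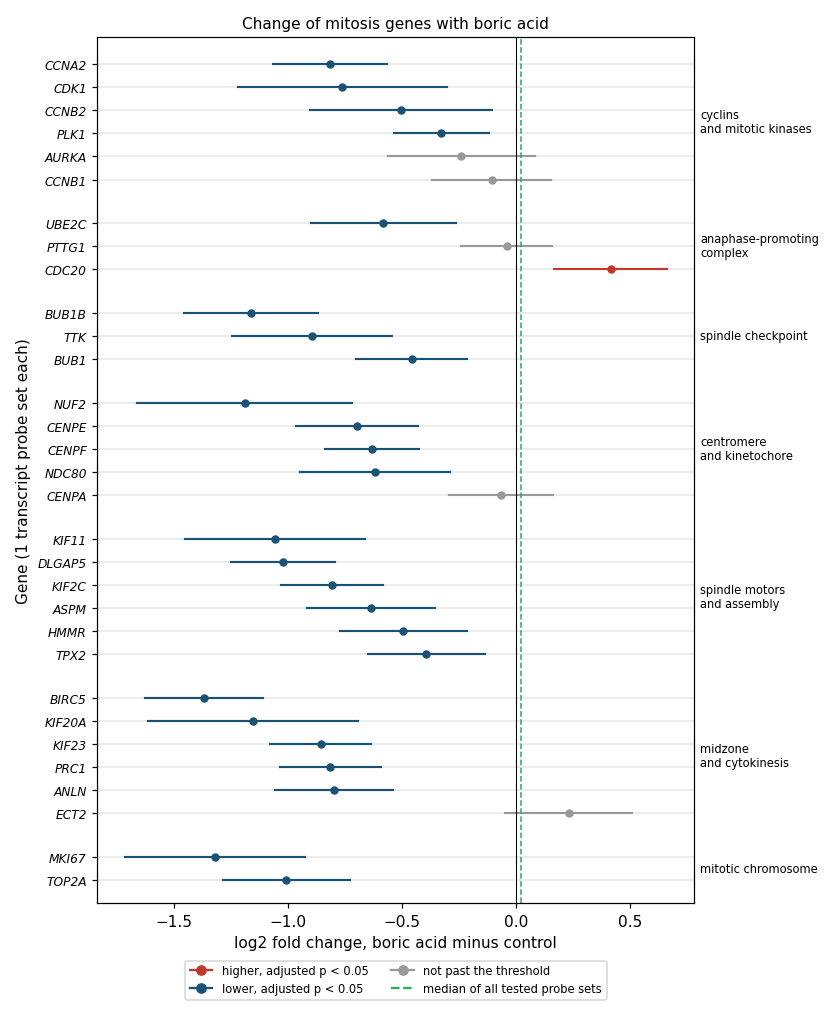
Log2 fold change (boric acid minus control) of each mitosis gene on the horizontal axis, with genes grouped by role on the vertical axis. Points are limma estimates from 3 boric acid and 3 control arrays, bars are 95% confidence intervals, blue marks genes that fell, red the gene that rose and grey those not past the threshold; the dashed line at 0.02 is the median of all tested rows. BIRC5 and MKI67 lie farthest to the left and CDC20 farthest to the right.

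The size of the decrease varied among the genes. 8 of the 31 (25.8%) fell at least 2-fold, against 4.45% of all tested rows, and none rose as much, against 3.01% of all tested rows; the largest increase was 1.33-fold. The 8 were BIRC5, MKI67, NUF2, BUB1B, KIF20A, KIF11, DLGAP5 and TOP2A. TOP2A, with a log2 fold change of -1.01, lay just inside the 2-fold limit, and TTK, at -0.89, was the nearest gene outside it. The list depends on the processing. Over the alternative settings TOP2A ran from -1.08 to -0.90, DLGAP5 from -1.08 to -0.97 and KIF11 from -1.22 to -0.92. KIF20A ran from -1.33 to -0.95 and TTK from -1.03 to -0.80. BIRC5, MKI67, NUF2 and BUB1B stayed beyond the 2-fold limit in every setting in which they were tested. In 24 of the 31 genes every boric acid array lay below every control array, which held for 25.5% of all tested rows. In 2 genes, CDC20 and ECT2, every boric acid array lay above every control array, which held for 30.8% of all tested rows.

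**Figure D2:**
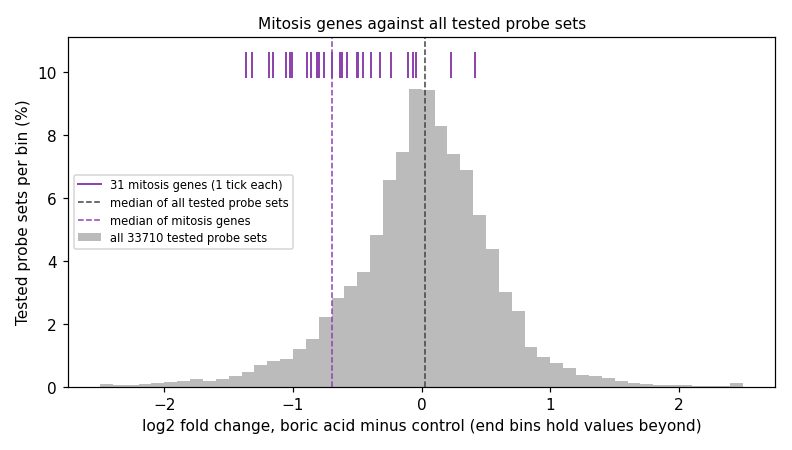
Percentage of all 33710 tested rows (vertical axis, grey bars) by log2 fold change, boric acid minus control (horizontal axis, bins of equal width), with a purple tick above the bars for each of the 31 mitosis genes. The dashed lines mark the medians, -0.70 for the mitosis genes and 0.02 for all tested rows; 29 of the 31 ticks lie below 0.

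Promoter sequences are shown for genes whose changes were unlike. Promoters of G2 and mitosis genes are known for CCAAT boxes, bound by the factor NF-Y, and for the cell cycle homology region (CHR), bound by MuvB complexes, whose usual letters are TTTGAA, with TTCGAA as another form. The RefSeq promoter table (GRCh38.p14) has entries for 26 of the 31 genes. MKI67 is shown for the largest decrease among them, CDC20 for the increase, TOP2A and CCNB2 for decreases of different size, and CCNB1 as a gene that did not pass the threshold; the last 3 were picked after their values were seen. Each line gives the 250 bases before the start site, 5′ to 3′ on the gene's strand. Capitals mark CCAAT or its reverse complement ATTGG, and TTTGAA or its reverse complement TTCAAA.
MKI67, chr10:128126424-128126673, minus strand: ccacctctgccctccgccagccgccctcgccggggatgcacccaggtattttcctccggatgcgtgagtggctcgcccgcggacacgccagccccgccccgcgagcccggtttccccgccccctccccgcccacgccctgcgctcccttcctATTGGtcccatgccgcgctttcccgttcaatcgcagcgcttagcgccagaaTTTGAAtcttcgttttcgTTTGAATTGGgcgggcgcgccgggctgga
TOP2A, chr17:40417897-40418146, minus strand: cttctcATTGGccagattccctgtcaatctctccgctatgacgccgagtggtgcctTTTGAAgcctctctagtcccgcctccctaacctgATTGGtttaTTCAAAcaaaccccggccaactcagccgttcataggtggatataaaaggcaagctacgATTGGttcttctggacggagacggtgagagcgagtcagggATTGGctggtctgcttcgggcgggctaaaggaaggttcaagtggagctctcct
CCNB2, chr15:59104896-59105145, plus strand: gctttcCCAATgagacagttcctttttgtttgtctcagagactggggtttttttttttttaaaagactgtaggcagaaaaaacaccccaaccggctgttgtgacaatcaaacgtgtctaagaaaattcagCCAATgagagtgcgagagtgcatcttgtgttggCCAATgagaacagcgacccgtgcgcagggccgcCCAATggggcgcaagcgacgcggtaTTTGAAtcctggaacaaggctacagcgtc
CCNB1, chr5:69166900-69167149, plus strand: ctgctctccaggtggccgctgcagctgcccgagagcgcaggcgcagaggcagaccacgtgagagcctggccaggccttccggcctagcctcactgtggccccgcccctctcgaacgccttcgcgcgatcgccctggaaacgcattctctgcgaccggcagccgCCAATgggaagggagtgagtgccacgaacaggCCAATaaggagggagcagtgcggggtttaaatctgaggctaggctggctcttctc
CDC20, chr1:43358731-43358980, plus strand: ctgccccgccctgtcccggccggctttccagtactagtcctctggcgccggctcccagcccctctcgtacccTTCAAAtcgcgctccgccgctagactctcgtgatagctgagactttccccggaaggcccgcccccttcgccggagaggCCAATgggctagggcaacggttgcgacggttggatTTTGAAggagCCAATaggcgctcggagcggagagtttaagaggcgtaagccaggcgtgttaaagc
In MKI67, 1 TTTGAA match and 1 ATTGG match share a base. CDC20, which rose, and MKI67, which fell, each held 2 CCAAT and 2 TTTGAA matches. CCNB1 held 2 CCAAT matches and no TTTGAA or TTCGAA match in the window searched, which says only that these letters are not there.

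The motifs were frequent among the mitosis genes and were not limited to those that fell. Counted over windows from 250 bases before to 50 after the start site, on both strands, TTTGAA or TTCGAA occurred in 18 of the 23 genes with a single promoter entry (78.3%), and in 16.4% of the 35116 promoters of the table. CCAAT occurred in 17 of the 23 (73.9%), against 34.6% of all promoters, and 2 or more CCAAT matches in 12 of the 23 (52.2%), against 10.8%. CCAAT together with TTTGAA or TTCGAA was found in 14 of the 23 (60.9%), against 6.38% of all promoters. Of the 20 genes of this set that fell, 16 held TTTGAA or TTCGAA, and of the other 3 (CCNB1, CENPA and CDC20) 2 did. These 3 genes are too few for a comparison with those that fell. KIF2C and CENPE, which fell, held none of these letters. CDK1, PTTG1 and ECT2 have 2 start sites each in the table and were not counted: TTTGAA occurred at both sites of CDK1 and ECT2 and at neither of PTTG1. AURKA, TTK, UBE2C, BIRC5 and TPX2 are named only.

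**Figure D3:**
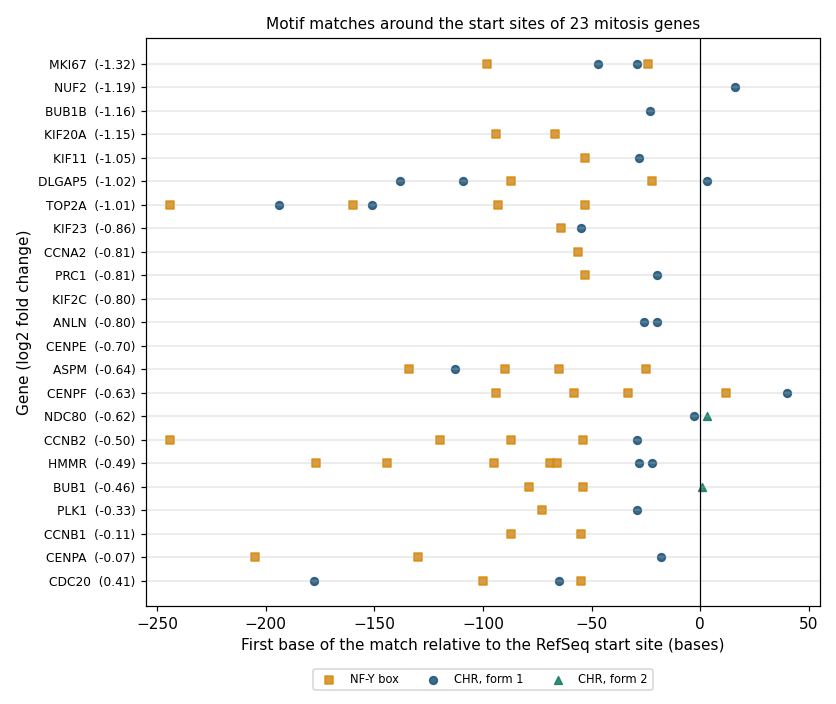
Positions of motif matches (horizontal axis, first base of the match in bases from the RefSeq start site at 0) in 23 mitosis genes, ordered from the largest decrease at the top to CDC20 at the bottom, with the log2 fold change (boric acid minus control) in brackets. Squares (NF-Y box) are CCAAT, circles (CHR, form 1) TTTGAA and triangles (CHR, form 2) TTCGAA, on either strand. These names stand for matching letters at any position in the window, and binding was not tested. Genes with and without a decrease carry such matches, and KIF2C and CENPE have none.

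Among the cyclins and mitotic kinases, 4 of 6 fell and none at least 2-fold. Beside this and the later counts by role, 19.2% of all tested rows fell, and 4.45% fell at least 2-fold. The role groups are small, and their counts were not tested. CCNA2 (ENST00000274026.9), cyclin A2, which acts in S phase and G2 and is destroyed early in mitosis, had log2 signals of 8.88, 9.10 and 8.89 in boric acid and 9.66, 9.77 and 9.89 in control cells. The groups lay well apart, and the gene fell 1.76-fold (log2 fold change -0.81, SE 0.11, adjusted p = 0.00155). CCNB1 (ENST00000256442.9), cyclin B1, the partner of CDK1 at mitotic entry, had 9.10, 9.38 and 9.25 in boric acid and 9.24, 9.46 and 9.36 in control cells. These values overlapped: the log2 fold change was -0.11 with a 95% confidence interval of -0.37 to 0.15 (adjusted p = 0.470). CCNB2 (ENST00000288207.6), cyclin B2, had 8.18, 8.68 and 8.44 in boric acid and 8.65, 9.08 and 9.08 in control cells. 1 boric acid array lay above 1 control array, and the decrease of 1.42-fold was close to the threshold (adjusted p = 0.0477); it was lost in 6 of 15 alternative settings, over which its adjusted p ran from 0.00817 to 0.143.

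Of the kinases in this group, CDK1 and PLK1 fell and AURKA did not pass the threshold. CDK1 (ENST00000395284.7), the kinase that drives entry into mitosis, had 6.48, 6.96 and 6.46 in boric acid and 7.03, 7.57 and 7.57 in control cells, so that the highest boric acid array lay just under the lowest control array. It fell 1.69-fold (log2 fold change -0.76, SE 0.20, adjusted p = 0.0183). PLK1 (ENST00000300093.8), a kinase of centrosome maturation and spindle assembly, had 11.41, 11.44 and 11.27 in boric acid and 11.72, 11.67 and 11.72 in control cells. It fell 1.25-fold (adjusted p = 0.0230), a small change with little spread in either group. The calls of CDK1 and PLK1 were each lost without boric acid array 3, control array 2 or control array 3, and that of PLK1 also without control array 1, with adjusted p up to 0.0671 for CDK1 and 0.0782 for PLK1. AURKA (ENST00000395915.7), the centrosome kinase Aurora A, had 10.54, 11.02 and 10.78 in boric acid and 10.90, 11.10 and 11.06 in control cells, overlapping values with a log2 fold change of -0.24 and a 95% confidence interval of -0.56 to 0.08 (adjusted p = 0.198).

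**Figure D4:**
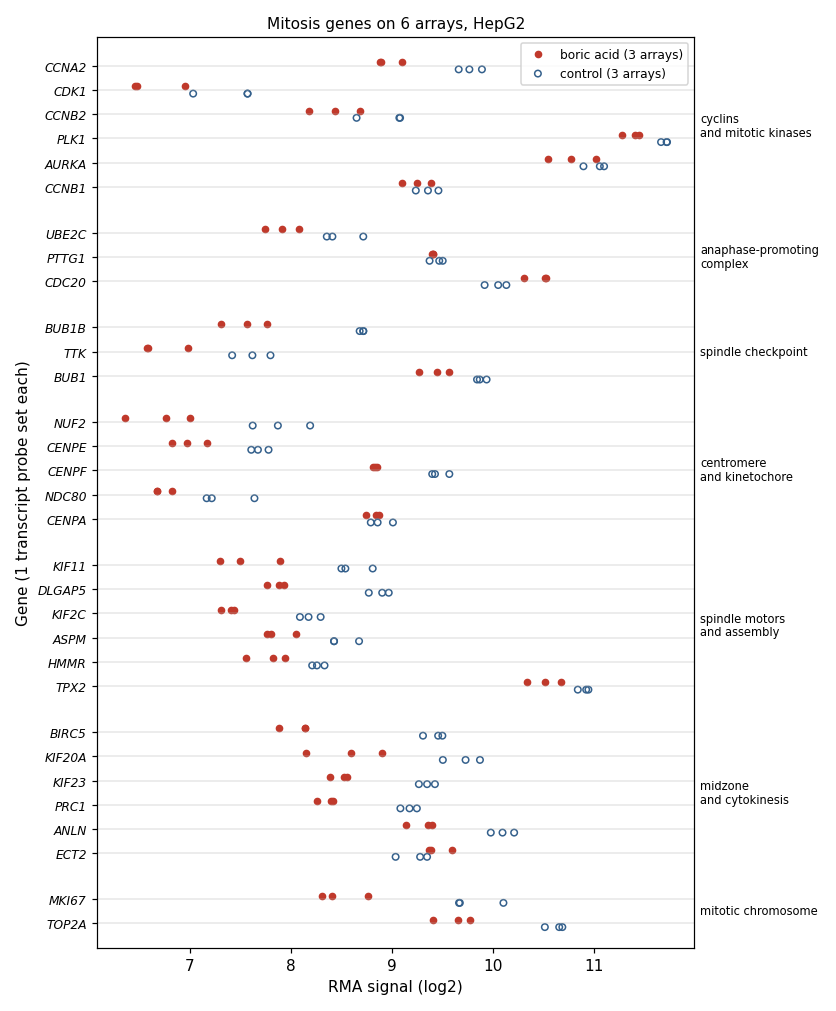
RMA signal (log2, horizontal axis) of the 31 mitosis genes on each of 6 arrays, by role on the vertical axis; filled red points are the 3 boric acid arrays and open blue points the 3 control arrays. Boric acid points lie wholly to the left of control points in 24 genes and wholly to the right in CDC20 and ECT2.

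The genes around the anaphase-promoting complex moved in different directions. CDC20 (ENST00000310955.10) had 10.52, 10.31 and 10.52 in boric acid and 10.13, 9.92 and 10.05 in control cells. All 3 boric acid values were above the controls, and the gene rose 1.33-fold (log2 fold change 0.41, SE 0.11, adjusted p = 0.0177). Its direction held in all 15 alternative settings, with log2 fold changes of 0.36 to 0.49, but the call was lost without boric acid array 3 (adjusted p = 0.0607), control array 2 (adjusted p = 0.0668) or control array 3 (adjusted p = 0.0508), so that no gene was then called higher. UBE2C (ENST00000356455.8), the ubiquitin-conjugating enzyme of the complex, had 8.08, 7.75 and 7.91 in boric acid and 8.36, 8.41 and 8.72 in control cells, and fell 1.50-fold (adjusted p = 0.0125). PTTG1 (ENST00000352433.9), securin, the inhibitor of the protease that parts sister chromatids, had 9.41, 9.40 and 9.41 in boric acid and 9.37, 9.47 and 9.50 in control cells. The boric acid arrays were nearly equal and lay inside the control range, with a log2 fold change of -0.04 and a 95% confidence interval of -0.24 to 0.16. PTTG1 has near-identical copies elsewhere in the genome, and how the probe set treats them is not given in the sources used here.

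All 3 spindle checkpoint genes fell. BUB1B (ENST00000287598.10), which encodes BUBR1, a part of the complex that blocks CDC20 while chromosomes are unattached, had 7.31, 7.76 and 7.57 in boric acid and 8.72, 8.68 and 8.72 in control cells. The control arrays were close together and every boric acid array lay far below them, a 2.23-fold decrease (log2 fold change -1.16, SE 0.13, adjusted p = 0.000799). TTK, the kinase that starts checkpoint signalling at kinetochores, fell 1.86-fold (adjusted p = 0.00371). BUB1 (ENST00000302759.10), the kinetochore kinase that recruits other checkpoint proteins, had 9.27, 9.57 and 9.44 in boric acid and 9.87, 9.84 and 9.94 in control cells, a smaller decrease of 1.37-fold (adjusted p = 0.0116).

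At the centromere and kinetochore, 4 of 5 genes fell. NUF2 (ENST00000271452.7), which with NDC80 forms the microtubule-binding complex of the outer kinetochore, had 6.77, 6.999 and 6.36 in boric acid and 7.62, 7.87 and 8.19 in control cells. The groups did not overlap and the spread within each was wide, with a 2.28-fold decrease (log2 fold change -1.19, SE 0.20, adjusted p = 0.00378). NDC80, CENPE, a kinetochore motor that brings chromosomes to the spindle equator, and CENPF, a large kinetochore protein, fell too, with log2 fold changes of -0.62, -0.70 and -0.63 in that order. NDC80 passed the signal filter only through its 3 control arrays (7.17, 7.22 and 7.64), since its boric acid arrays (6.67, 6.82 and 6.68) all lay under the filter level of 6.89, the median of the table; with all rows tested and no filter its adjusted p was 0.0185. CDK1, TTK, NUF2 and CENPE had 1 or 2 boric acid arrays under that level. CENPA (ENST00000335756.8), the histone H3 variant that marks centromeres, had 8.74, 8.88 and 8.85 in boric acid and 8.79, 8.86 and 9.01 in control cells, which overlapped; its log2 fold change was -0.07 with a 95% confidence interval of -0.29 to 0.16.

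All 6 genes of spindle motors and spindle assembly fell. KIF11 (ENST00000260731.4), the motor that pushes spindle poles apart, had 7.49, 7.90 and 7.30 in boric acid and 8.54, 8.50 and 8.81 in control cells, a 2.08-fold decrease (log2 fold change -1.05, SE 0.17, adjusted p = 0.00310). DLGAP5, a spindle protein that stabilises microtubules near chromosomes, fell 2.03-fold with a smaller spread (SE 0.10, adjusted p = 5.0e-04). KIF2C, a kinesin that takes microtubules apart at centromeres, ASPM, which acts at spindle poles, and HMMR, a microtubule-binding protein, fell with log2 fold changes of -0.80, -0.64 and -0.49 in that order. TPX2 (ENST00000300403.10), which activates Aurora A on the spindle, had 10.68, 10.51 and 10.34 in boric acid and 10.84, 10.92 and 10.95 in control cells, the smallest decrease of this group (1.31-fold, adjusted p = 0.0249). Its call was lost without boric acid array 2 or 3 or control array 2 or 3, with adjusted p up to 0.0785, and that of HMMR without control array 2 (adjusted p = 0.0539).

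Of the 6 genes of the spindle midzone and cytokinesis, 5 fell. BIRC5 (ENST00000350051.7), survivin, the subunit that carries the Aurora B complex to centromeres and the midzone, had 7.89, 8.14 and 8.14 in boric acid and 9.31, 9.46 and 9.50 in control cells. This was the largest decrease among the 31 genes, 2.58-fold (log2 fold change -1.37, SE 0.11, adjusted p = 0.000324), and 1.90% of all tested rows had a lower log2 fold change. KIF20A, a midzone kinesin, had a log2 fold change of -1.15, and its boric acid arrays had the widest spread of the 31 genes (SD 0.38, n = 3). KIF23, a motor of the centralspindlin complex, PRC1, which bundles midzone microtubules, and ANLN, the scaffold of the contractile ring, fell with log2 fold changes of -0.86, -0.81 and -0.80 in that order. ECT2 (ENST00000392692.7), the exchange factor that activates RhoA for the contractile ring, had 9.39, 9.60 and 9.37 in boric acid and 9.04, 9.28 and 9.35 in control cells. The lowest boric acid array lay just above the highest control array, and the log2 fold change of 0.23 (95% confidence interval -0.05 to 0.51) did not pass the threshold (adjusted p = 0.155).

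Both genes of the mitotic chromosome fell at least 2-fold, TOP2A only narrowly. MKI67 (ENST00000368654.7), the Ki-67 protein that coats mitotic chromosomes and marks cycling cells, had 8.31, 8.77 and 8.41 in boric acid and 9.67, 9.67 and 10.11 in control cells, a 2.50-fold decrease (log2 fold change -1.32, SE 0.17, adjusted p = 0.00143). TOP2A (ENST00000423485.5), the topoisomerase that untangles sister chromatids, had 9.41, 9.77 and 9.66 in boric acid and 10.52, 10.69 and 10.66 in control cells. The groups were clearly apart, with a 2.01-fold decrease (SE 0.12, adjusted p = 0.00107).

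Several genes that work together had log2 fold changes of unlike size. The log2 fold change of CCNA2 minus that of CCNB1 was -0.71 (SE 0.08, from within-array differences), and that of UBE2C minus that of CDC20 was -0.995 (SE 0.14). The same difference was -0.56 for CENPF minus CENPA (SE 0.04), -0.70 for BUB1B minus BUB1 (SE 0.05) and -1.03 for ANLN minus ECT2 (SE 0.09). These pairs were chosen after their values were seen, so the differences are descriptions and were not tested.

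Within a group, most of the mitosis genes were lower on some arrays than on others. Their mean log2 signal was 8.47, 8.64 and 8.46 on boric acid arrays 1 to 3 and 9.07, 9.18 and 9.27 on control arrays 1 to 3. Boric acid array 3 was below boric acid array 2 in 26 of 31 genes, array 1 below array 2 in 23 and array 1 below array 3 in only 15. Control array 1 was below control array 3 in 28 of 31 genes, array 1 below array 2 in 22 and array 2 below array 3 in 24. The matching counts over all rows were not made, so these counts are not shown to be particular to the mitosis genes. The array medians over all rows were 6.84, 6.87 and 6.88 in boric acid and 6.91, 6.89 and 6.92 in control cells, values that RMA makes nearly equal. The SD between replicates had a median over the 31 genes of 0.15 in boric acid and 0.11 in control cells (n = 3 each). Over the whole table, boric acid array 1 differed from boric acid arrays 2 and 3 by a median of 0.173 and 0.175 log2 units, and these from each other by 0.115. Without boric acid array 1, 24 mitosis genes fell and 1 rose, while 19.3% of all tested rows were lower and 22.5% higher. 6 of the 31 rows had another row with identical values on all arrays, whose transcripts are not named here.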

How the data were processed

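Signals came from 6 arrays of HepG2 RNA, 3 per group, grouped by sample titles. Per the submitters' processing notes, the authors ran RMA, which subtracts background, equalises array distributions and summarises probes; its version is not stated there. The deposited values were taken as log2 from their range. Genome build, annotation release and probe set definitions: not given in the sources used here. Because array distributions were equalised, all changes are relative ones.

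A row was tested if it exceeded the table's median (6.89) on at least 3 of the 6 arrays, which 33710 of 65527 rows (51.4%) did. Groups were compared with limma 3.58.1 in R 4.3.3 (lmFit, eBayes, two-sided, no covariate), with Benjamini-Hochberg adjustment over all tested rows and a threshold of 0.05. The fit was run on simulated data with independent noise in each row and 200 changed rows. Far more rows were called in the real data, so that run checks the computation and not the calls made here. Precision was limited by the number of arrays, with a median standard error of 0.11 over the 31 genes. Alternatives changed the filter, normalization, variance model, array weights, replicate block and repeated rows, and left out each array.

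Every member is named by role. Array values are given for the largest and smallest change of each role, for genes without a call and for genes against the majority. Those of CCNB2, CDK1, PLK1 and NDC80 were added after seeing the data. Members, lists and tests were chosen with earlier results of these data known. Other mitosis genes and liver markers were not analysed here, since the naming table holds no Ensembl IDs. Deviations from group means correlated between same-numbered arrays by 0.477, 0.174 and 0.195, all over the limit of 0.1 set for pairing. Number 1 stood apart: boric acid 1 correlated with control 2 and 3 by -0.24 and -0.36. Control 1 correlated with boric acid 2 and 3 by -0.45 and -0.32. Numbers 2 and 3 were not told apart, since boric acid 2 correlated with control 3 by 0.376 and boric acid 3 with control 2 by 0.211. The labels give no pairing. The comparison was made without the block, which is an alternative. Motifs were searched in RefSeq promoters (GRCh38.p14).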

Additional observations from a re-analysis of the deposited data

How the results depend on the processing

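Over 31 genes and 15 alternatives, 1 sign changed: PTTG1 was at 0.000131 and not -0.04 on the log2 scale with arrays centred on their medians, uncalled in both cases. The filter at the 75th percentile left 21 genes, of which 15 fell and 1 rose, since fewer were tested. Of all rows tested with that filter, 20.7% were lower and 26.2% higher. Leaving out 1 array at a time gave 20 to 24 genes lower, 0 to 1 higher and a median log2 fold change of -0.72 to -0.63, while 13.9% to 19.3% of all tested rows were lower and 15.8% to 22.5% higher. With the replicate block 25 genes fell and 1 rose, and no call among the 31 genes changed, while the shares of all tested rows were 22.2% lower and 25.9% higher, against 19.2% and 23.0% without it. The other settings gave 24 or 25 lower and 1 higher, while 11.7% to 22.3% of all tested rows were lower and 12.4% to 27.9% higher. The count was 24 without the filter and with centred arrays, where CCNB2 was lost (adjusted p = 0.0725 and 0.0566). The median stayed between -0.76 (array weights) and -0.66 (centred arrays) in these other settings. CCNB2 was also lost without boric acid array 1 or 3 and control array 2 or 3.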
